A study of Mus musculus with 11 samples.

Results

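The anaphase-promoting complex or cyclosome (APC/C) was followed through 10 genes: the ubiquitin-conjugating (E2) enzymes Ube2c and Ube2s, the activators Cdc20 and Fzr1, the inhibitor Fbxo5, the securin gene Pttg1, and the core subunits Cdc27, Cdc26, Anapc5 and Anapc11. They were found by gene symbol, with 1 transcript per gene, and were 10 of the 24064 genes in the size-gated libraries and 10 of the 23418 gene symbols in the unfractionated ones. The cells were haematopoietic stem cells (HSCs), the source of all blood lineages, sorted as Lineage- Sca1+ cKit+ CD150+ CD48- cells from the livers of wild-type C57BL/6 mice at P0, the day of birth. FSC-A High comprised 4 libraries of HSCs gated for high forward scatter area, FSC-A Low comprised 3 libraries gated for low forward scatter area, and 4 further libraries, titled WT HSC, carried no scatter gate in their labels and are called unfractionated. Forward scatter area is the flow cytometry signal that serves as a proxy for the size of a cell. Each library was made from 100 to 200 sorted cells by Smart-seq2, which amplifies full-length cDNA, and no label says whether libraries came from different animals or from pools, so every p-value below speaks only of the spread among these libraries.

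The APC/C is a ubiquitin ligase that marks mitotic proteins for destruction by the proteasome. Cdc20 activates it when chromosomes have attached to the spindle, so that securin and the B-type cyclins are degraded and sister chromatids part; Fzr1 (Cdh1) takes over at mitotic exit and holds the complex active through G1, and Fbxo5 (Emi1) inhibits it during S and G2 phase. Blood stem cells divide rarely in the adult but often in the fetal and newborn liver, and transcripts of several APC/C regulators are known to accumulate in G2 and M phase, whereas those of the core subunits vary little over the cycle.

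The windows upstream of 4 members are shown because Ube2c, Cdc20 and Fbxo5 had the widest differences between the gates among the members, and Cdc27 is a core subunit with a narrower one. Each line gives the 250 bases before the start of the RefSeq transcript (GRCm38.p6, the assembly that mm10 denotes), read 5′ to 3′ on the gene's own strand. Capitals mark the CHR element, searched as TTTGAA or TTCGAA, and the CCAAT box, both on either strand, so that TTCAAA and ATTGG are reverse matches. The positions were chr2:164769679-164769928 on the plus strand for Ube2c, chr4:118437344-118437593 on the minus strand for Cdc20, chr10:5805466-5805715 on the minus strand for Fbxo5 and chr11:104550621-104550870 on the minus strand for Cdc27.
Ube2c: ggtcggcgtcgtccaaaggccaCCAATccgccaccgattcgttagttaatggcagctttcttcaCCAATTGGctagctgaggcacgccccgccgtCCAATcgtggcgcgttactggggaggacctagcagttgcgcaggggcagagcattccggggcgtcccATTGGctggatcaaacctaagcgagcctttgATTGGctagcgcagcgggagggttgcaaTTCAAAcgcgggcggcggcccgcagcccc
Cdc20: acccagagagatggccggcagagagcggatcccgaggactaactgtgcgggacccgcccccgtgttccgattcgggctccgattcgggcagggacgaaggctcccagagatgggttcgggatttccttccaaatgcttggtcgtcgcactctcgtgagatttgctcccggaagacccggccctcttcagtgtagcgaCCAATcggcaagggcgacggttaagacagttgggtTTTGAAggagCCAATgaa
Fbxo5: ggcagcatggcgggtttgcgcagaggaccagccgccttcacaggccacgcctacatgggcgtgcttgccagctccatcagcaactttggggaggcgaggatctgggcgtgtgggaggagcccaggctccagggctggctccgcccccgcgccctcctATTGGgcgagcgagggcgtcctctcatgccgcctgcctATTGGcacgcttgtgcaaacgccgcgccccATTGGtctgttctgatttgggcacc
Cdc27: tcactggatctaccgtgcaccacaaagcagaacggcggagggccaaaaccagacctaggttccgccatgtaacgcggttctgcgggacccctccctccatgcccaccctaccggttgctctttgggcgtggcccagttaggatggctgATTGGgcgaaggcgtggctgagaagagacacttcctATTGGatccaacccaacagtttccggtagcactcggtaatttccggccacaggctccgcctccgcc

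The CHR match of Ube2c lay 29 to 24 bases before the transcript start, and that of Cdc20 lay 18 to 13 bases before it. Ube2c held 6 CCAAT matches, of which a pair overlaps in CCAATTGG, Cdc20 held 2, Fbxo5 held 3 and Cdc27 held 2. The CHR match of Fbxo5 lay at bases 4 to 9 past the start and is therefore not among the letters shown. Over windows of 300 bases, from 250 before to 50 after the start, 4 of the 10 members held a CHR match (Ube2c, Ube2s, Cdc20 and Fbxo5), 7 held a CCAAT match, and 3 held both (Ube2c, Cdc20 and Fbxo5). Among all 27025 genes with a RefSeq window of this length, 21.7% held a CHR match, 41.1% a CCAAT match and 8.61% both (7.52% of the 32851 single windows). An E2F word, searched as TTTCCCGC, TTTCGCGC, TTTGCCGC or TTTGGCGC on either strand, was in 2.26% of the single windows and in that of no member. The windows of Pttg1 and Anapc5 lie inside the gene spans given below, at an annotated start other than the outermost one, and the start used for Pttg1 is that of its other transcript. A match describes the letters and is not evidence of a bound factor.

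The gated libraries compare transcripts of HSCs that differ in scatter. All 10 members stood higher in FSC-A High: in each gene every FSC-A High library lay above every FSC-A Low library. All 10 reached 1 RPKM in each of the 7 gated libraries and so passed the filter on low values. The genes had been chosen by these same FSC-A High and FSC-A Low values, so they are described here without a test; 18.9% of all 10619 genes tested separated in the same way, and 16% separated in the opposite way. Values are RPKM (reads scaled to transcript length and library depth), differences are on the log2(RPKM + 1) scale, FSC-A High minus FSC-A Low, which understates the change of low genes, and the median difference over all tested genes was -0.04. The median difference was 2.80 over the 5 members whose transcripts are known to follow the cycle (Ube2c, Ube2s, Cdc20, Fbxo5 and Pttg1) and 0.61 over the 4 core subunits, whose differences ran from 0.41 to 0.77. In bulk libraries, a smaller share of cells holding a transcript and less of it in each cell cannot be told apart.

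**Figure D1:**
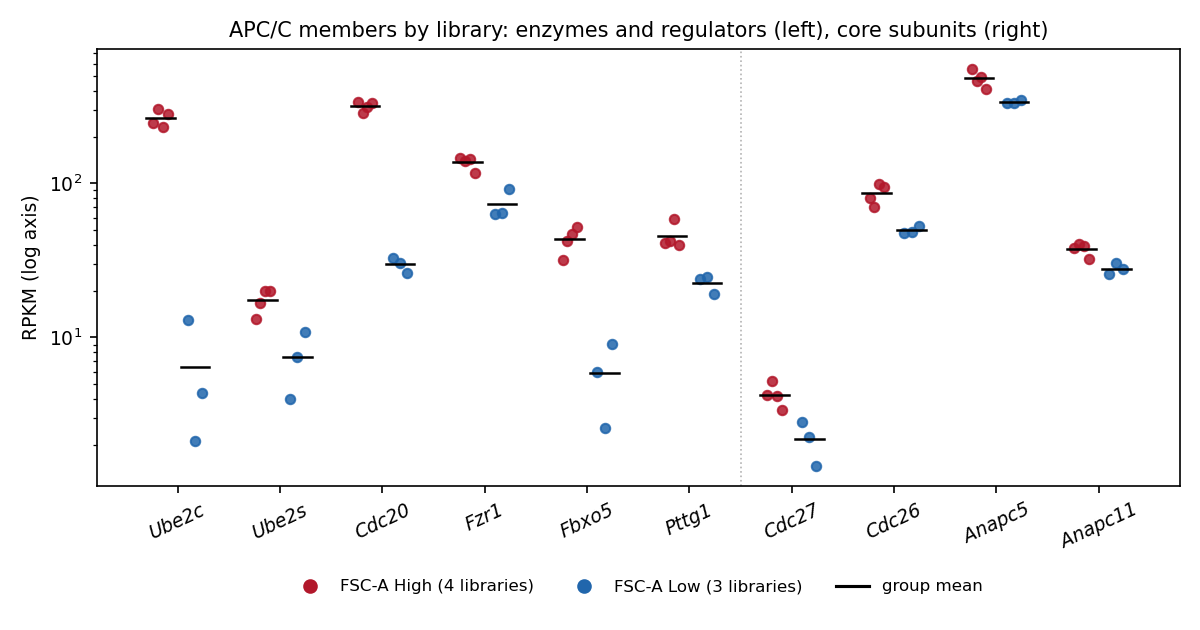
RPKM (log axis) of the 10 APC/C genes in each library, with FSC-A High in red, FSC-A Low in blue and a bar at each group mean. The red points lie above the blue ones in every gene, most widely in Ube2c (232 to 303 against 2.13 to 13.0 RPKM) and most narrowly in Anapc11 (32.3 to 40.3 against 25.8 to 30.4 RPKM).

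Ube2c (chr2:164769929-164772902), the E2 enzyme that starts ubiquitin chains on APC/C substrates, measured 248, 303, 232 and 283 RPKM in FSC-A High and 13.0, 2.13 and 4.35 RPKM in FSC-A Low. The lowest FSC-A High library was far above the highest FSC-A Low library, and the 3 FSC-A Low libraries also differed widely among themselves. The means were 267 ± 32.2 (SD, n = 4) and 6.48 ± 5.72 RPKM (SD, n = 3), a 41.2-fold ratio of means and a log2 difference of 5.43 (SE 0.37). FSC-A Low 1 weighed on these values: without it the FSC-A Low mean was 3.24 RPKM, the ratio 82.3 and the log2 difference 6.02. Ube2s (chr7:4808014-4812340), which extends the chains that Ube2c begins, measured 13.2, 16.9, 20.2 and 19.9 RPKM in FSC-A High and 3.99, 7.49 and 10.8 RPKM in FSC-A Low. Its groups approached each other closely, with a ratio of means of 2.36 and a log2 difference of 1.21 (SE 0.31). The 2 enzymes therefore did not keep a fixed proportion: the ratio of Ube2c to Ube2s was 11.5 to 18.7 in the FSC-A High libraries and 0.285 to 3.24 in the FSC-A Low libraries.

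Cdc20 (chr4:118432901-118437343), the mitotic activator, measured 335, 287, 312 and 333 RPKM in FSC-A High and 33.0, 30.6 and 26.2 RPKM in FSC-A Low. Both groups were tight, and the means of 317 ± 22.4 (SD, n = 4) and 29.9 ± 3.43 RPKM (SD, n = 3) gave a ratio of 10.6 and a log2 difference of 3.36 (SE 0.14). The end of Cdc20 overlaps the gene Elovl1 (chr4:118426874-118432953), and whether reads were counted by strand is not given in the sources used here. Fzr1 (chr10:81366879-81378370), the activator of mitotic exit and G1, measured 146, 140, 145 and 117 RPKM in FSC-A High and 63.2, 64.2 and 92.2 RPKM in FSC-A Low. FSC-A High 4 was the lowest of its group and FSC-A Low 3 the highest of its own, yet they stayed apart. The ratio of means was 1.87 and the log2 difference 0.91 (SE 0.17), which became 1.42 once a smooth trend of the values over transcript length and GC content had been removed within each library. The ratio of Cdc20 to Fzr1 turned over between the gates: it was 2.05 to 2.84 in the FSC-A High libraries, where Cdc20 was the more abundant per length, and 0.284 to 0.522 in the FSC-A Low libraries, where Fzr1 was.

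Fbxo5 (chr10:5799158-5805465), the inhibitor of the complex, measured 32.0, 42.6, 47.2 and 52.1 RPKM in FSC-A High and 5.95, 2.57 and 9.02 RPKM in FSC-A Low. The groups lay well apart, at 43.5 ± 8.58 (SD, n = 4) and 5.85 ± 3.23 RPKM (SD, n = 3), with a ratio of 7.43 and a log2 difference of 2.80 (SE 0.32). Set against Fzr1, one of the activators it inhibits, Fbxo5 had a ratio of 0.219 to 0.445 in FSC-A High and 0.0400 to 0.0978 in FSC-A Low. Pttg1 (chr11:43420244-43427463) encodes securin, which holds separase inactive until the APC/C destroys it. It measured 41.0, 42.2, 58.8 and 39.7 RPKM in FSC-A High and 24.1, 24.5 and 19.2 RPKM in FSC-A Low. FSC-A High 3 stood above the other 3, which were close together. The log2 difference of Pttg1 was 0.97 (SE 0.20). It was reduced to 0.28 when the trend over length and GC content was removed, the largest drop among the cycle-regulated members. The transcript used is short, at 741 nt, and the trend was removed at that length only. The other RefSeq transcript of Pttg1, of 1674 nt, gave 18.0 to 26.6 RPKM in FSC-A High and 9.80 to 10.8 RPKM in FSC-A Low. These values were lower about in proportion to the longer length. Both transcripts can therefore rest largely on the same reads and are not taken as separate measurements.

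Among the core subunits, Anapc5 (chr5:122787459-122822339), a scaffold subunit, was the most abundant member in both gates, at 552, 463, 494 and 409 RPKM in FSC-A High and 334, 331 and 349 RPKM in FSC-A Low. The FSC-A Low values were nearly equal, and the ratio of means was 1.42, with a log2 difference of 0.50 (SE 0.12). Cdc26 (chr4:62392344-62408625), a small subunit that stabilises Cdc16, measured 80.7, 69.9, 99.2 and 94.5 RPKM against 47.8, 48.5 and 52.6 RPKM, a log2 difference of 0.77 (SE 0.17). Anapc11 (chr11:120598421-120608198), the RING subunit that recruits the E2 enzymes, measured 37.9, 40.3, 39.3 and 32.3 RPKM against 25.8, 30.4 and 27.8 RPKM, a log2 difference of 0.41 (SE 0.18). FSC-A High 4 came within a few RPKM of the highest FSC-A Low library in Anapc11. Cdc27 (chr11:104502524-104550620), a subunit that binds the activators, was the least abundant member, at 4.22, 5.19, 4.19 and 3.36 RPKM against 2.83, 2.25 and 1.47 RPKM, a log2 difference of 0.73 (SE 0.31). Its 5′ end overlaps the gene Myl4 (chr11:104546017-104587215), and its level per length is low enough that the pseudocount of 1 compresses the difference: the ratio of means was 1.94. With library total scaling Anapc5 was at 0.18 and Anapc11 at 0.10, and Anapc5 was at -0.089 after the expression level trend had been taken out.

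The order of the levels differed between the gates. In FSC-A High it ran Anapc5, Cdc20, Ube2c, Fzr1, Cdc26, Pttg1, Fbxo5, Anapc11, Ube2s and Cdc27. The library ranges of Cdc20 and Ube2c overlapped, as did those of Pttg1 with Fbxo5 and of Fbxo5 with Anapc11. In FSC-A Low it ran Anapc5, Fzr1, Cdc26, Cdc20, Anapc11, Pttg1, Ube2s, Ube2c, Fbxo5 and Cdc27, and Cdc20 overlapped Anapc11, while Ube2s, Ube2c, Fbxo5 and Cdc27 formed a chain of overlapping ranges. Ube2c thus went from the third place to the eighth, and Cdc20 from the second to the fourth. The mean log2 level of the 5 cycle-regulated members minus that of the 4 core members was 0.34, 0.54, 0.58 and 0.79 in the FSC-A High libraries and -1.44, -1.92 and -1.41 in the FSC-A Low libraries. These are means of log2 levels over a few genes of very different abundance: in FSC-A High, Ube2s, Fbxo5 and Pttg1 were still below Anapc5 and Cdc26, and in FSC-A Low the mean of each of the 5 was above that of Cdc27.

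The other core subunits were read from a list of 14 that includes the 4 members. All 10 subunits outside the members were tested with limma on log2(RPKM + 1), calling a gene at a Benjamini-Hochberg adjusted p below 0.05, and 3 were higher in FSC-A High, against a background of 15.6% of all genes called higher. Anapc13 was at 232 ± 38.3 RPKM (SD, n = 4) against 151 ± 21.6 RPKM (SD, n = 3), differing by 0.61 (SE 0.16) at a limma adjusted p of 0.0122. Anapc15 was at 35.7 ± 14.7 against 16.4 ± 3.17 RPKM (1.02, SE 0.28, limma adjusted p = 0.0160), and Anapc16 at 65.2 ± 8.77 against 42.9 ± 13.1 RPKM (0.63, SE 0.22, limma adjusted p = 0.0492). Anapc13 and Anapc15 encode small subunits, as does Anapc16. None of the 3 calls held when each library was scaled to the total of its gene values (limma adjusted p 0.131, 0.0617 and 0.278), and each was lost when a single library was left out: Anapc13 without FSC-A Low 3 (0.0575), Anapc15 without FSC-A Low 1 (0.0642) and Anapc16 without any of FSC-A High 1, 2 or 3 or FSC-A Low 1 or 3 (0.0648 to 0.208).

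The large platform subunit Anapc1 pointed the other way. It measured 1.31, 2.53, 2.87 and 3.85 RPKM in FSC-A High and 7.97, 5.99 and 3.99 RPKM in FSC-A Low. The groups did not overlap, but the difference of -0.95 (SE 0.35) missed the threshold (limma adjusted p = 0.0636). It passed with upper quartile scaling (0.0485), with library total scaling (-1.20, 0.0226), without FSC-A High 4 (0.0497) and without FSC-A Low 3 (0.0467). Under every other alternative in which Anapc1 was tested it did not pass. There the limma adjusted p ran from 0.0522 (pseudocount of 5) to 0.289 (length and GC trend removed, difference -0.57). The other 6 were not called: the differences were 0.83 for Anapc10, which helps to bind substrates, 0.38 for Cdc23, 0.07 for Anapc7, -0.01 for Anapc4, -0.11 for Cdc16 and -0.45 for the cullin-like Anapc2, with limma adjusted p from 0.0689 (Anapc10) to 0.974 (Anapc4). With library total scaling, which moved the median of all genes from -0.04 to -0.31, no subunit was called higher by limma (1 at an unadjusted p below 0.05) and 3 were called lower, namely Anapc1, Anapc2 (-0.76, 0.0231) and Cdc16 (-0.42, 0.0473). Among all 10620 genes tested on that scale, 980 were called higher and 2285 lower. Anapc2 also passed without FSC-A Low 2 (-0.68, limma adjusted p = 0.0410), but not after removal of the trend over length and GC content (-0.17, 0.613). The median over the 10 subunits was 0.22 as deposited and -0.08 with library total scaling, and so lay above the median of all genes under both. Removal of the trend over expression level called 2 of the 10 higher, among them Anapc10 (1.04, limma adjusted p = 0.0256), and 2 lower, Anapc2 (-0.76, 0.0261) and Cdc16 (-0.51, 0.0254). Under that removal 1272 of all 10619 genes were called higher and 1191 lower.

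Transcript length moved with the differences of the core. The 4 core transcripts under 1000 nt (Anapc11, Anapc13, Anapc15 and Cdc26, of 589 to 962 nt) had a median log2 difference of 0.69, and the other 10, of 1852 to 8942 nt, had 0.22. Over all tested genes the 1186 with transcripts under 1000 nt had a median of 0.55 and the 9274 longer ones -0.10. After the trend over length and GC content was removed, the medians were 0.05 for the 4 short core subunits and 0.35 for the other 10, against 0.05 and 0.01 for short and longer genes overall. Among the short members, the difference of Anapc11 became 0.00 and that of Cdc26 0.10, whereas among the longer ones Anapc5 was at 0.52 and Cdc27 at 0.98. Another RefSeq transcript of Anapc11, of 3229 nt, was listed at 27.4 to 34.9 RPKM in FSC-A High and 21.7 to 25.8 RPKM in FSC-A Low. The trend was removed only at the length of the transcript used, so the place of Anapc11 among the short subunits depends on that choice. On that scale 9.81% of all genes were called higher and 7.47% lower, and 1 of the 10 subunits outside the members was called higher: Cdc23, a subunit of the same arm of the complex as Cdc27, at 0.70 (limma adjusted p = 0.0203). The values of Anapc13 and Anapc15 became -0.12 and 0.36 (limma adjusted p 0.637 and 0.399).

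**Figure D2:**
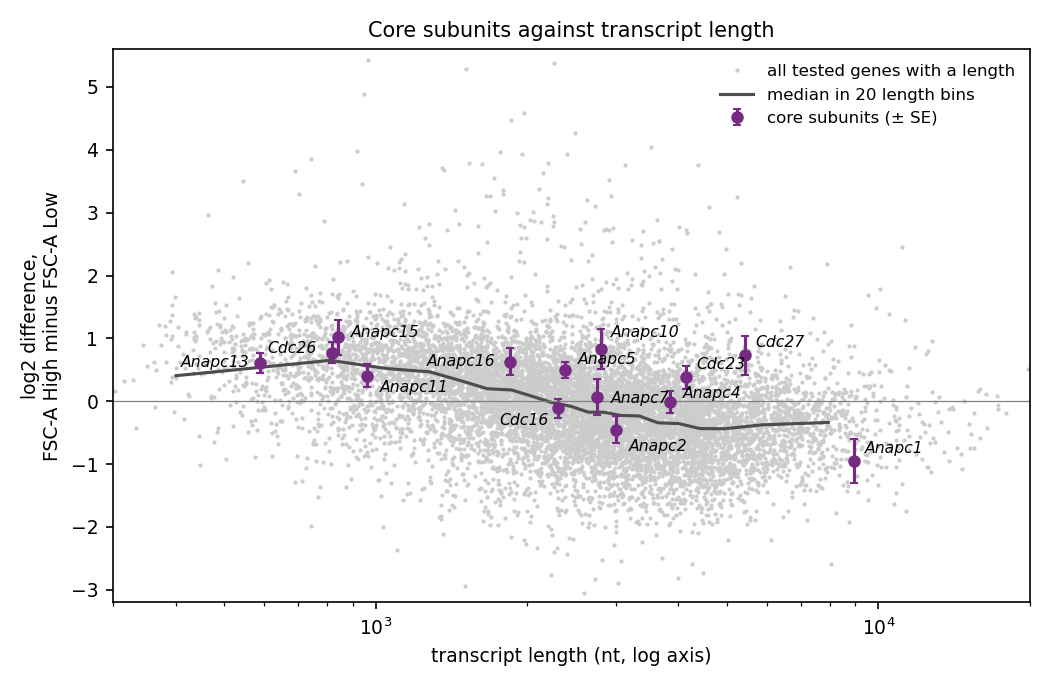
Log2 difference between FSC-A High and FSC-A Low against transcript length (log axis, nt) for the 14 core subunits (purple, with SE) and for tested genes with a known length (grey, those beyond the axes not drawn), with the median in 20 length bins as a line. The line passes from above 0 for transcripts under 1000 nt to below 0 for long ones; the 4 short core subunits lie near it, and Cdc27 and Cdc23 lie above it.

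After the length and GC trend had been removed, the median of the 5 cycle-regulated members was 2.57, and Ube2c, Cdc20 and Fbxo5 were at 4.83, 3.25 and 2.57, Ube2s at 0.96 and Pttg1 at 0.28. The median of the 4 core members was 0.31. Ube2c, Cdc20 and Fbxo5 lay above every core subunit on both scales, while Pttg1 lay among the core subunits on both, and Ube2s did so once the trend was removed.

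**Figure D3:**
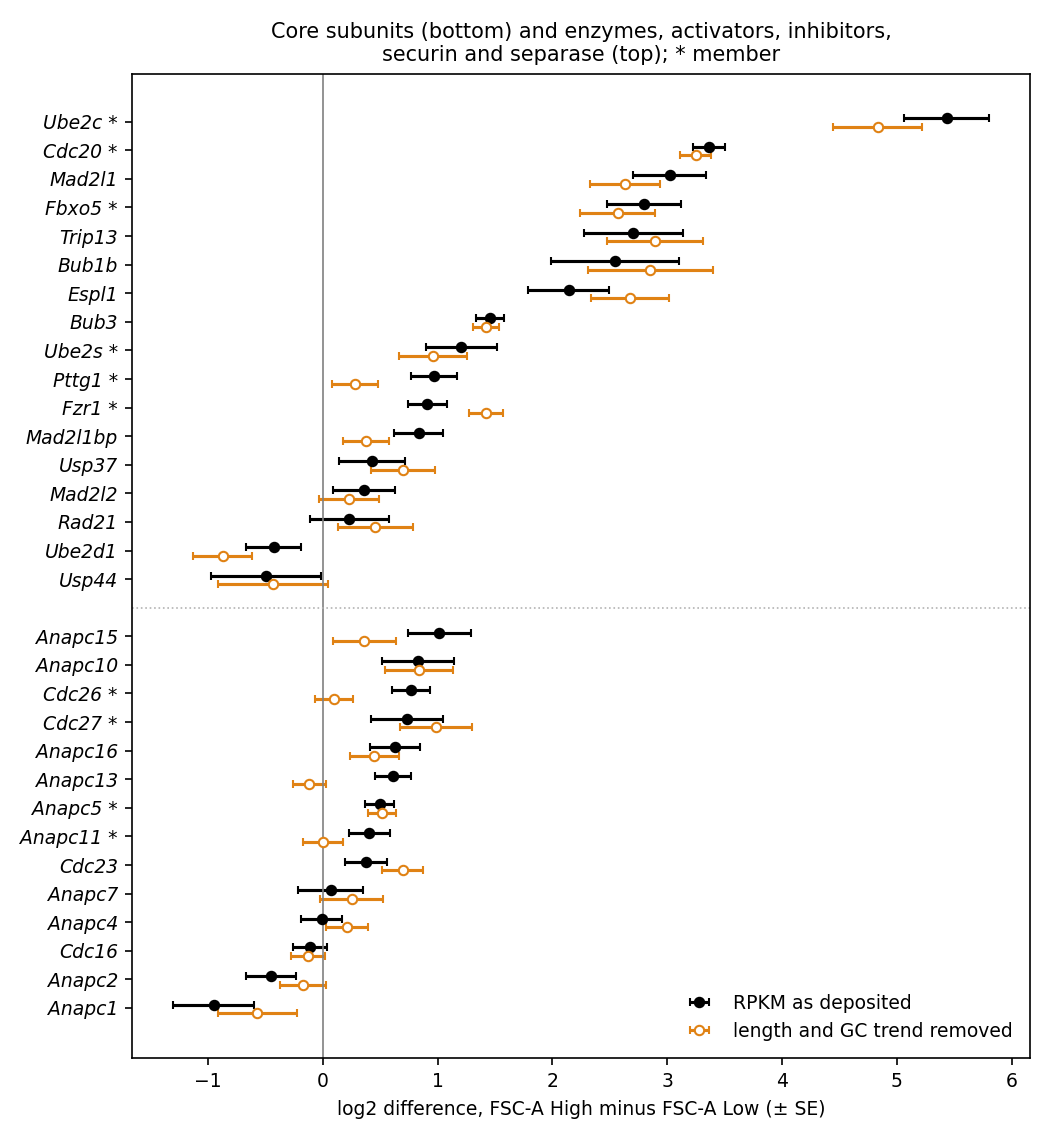
Log2 difference, FSC-A High minus FSC-A Low, with its SE for the regulators (top) and the core subunits (bottom), as deposited (filled) and after removal of the length and GC trend (open); an asterisk marks the 10 members. Ube2c (5.43) and Cdc20 (3.36) lie furthest to the right, and the core subunits lie between -0.95 (Anapc1) and 1.02 (Anapc15).

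The remaining regulators of the complex were counted from a list of 18 that includes 6 of the members. Of the 12 others, Fbxo43 was listed at 0 in every gated library, 11 were tested, and 6 were higher in FSC-A High, where 15.6% of all genes were called higher and 11.7% lower. No regulator was called lower by limma (0 at an unadjusted p below 0.05). The median difference of the 11 was 0.84. Mad2l1, a protein of the mitotic checkpoint complex that captures Cdc20, measured 62.5, 57.4, 78.0 and 105 RPKM in FSC-A High and 15.8, 5.31 and 6.36 RPKM in FSC-A Low, differing by 3.02 (limma adjusted p = 4.31e-05). Bub1b (BubR1), of the same checkpoint complex, was at 27.1 ± 7.34 RPKM (SD, n = 4) against 5.52 ± 4.99 RPKM (SD, n = 3), with a difference of 2.55 (limma adjusted p = 0.00484, and 0.0663 with no filter on low values). Bub3, their partner, stood at 303 ± 23.9 against 110 ± 1.68 RPKM, a difference of 1.46 (limma adjusted p = 6.61e-06).

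Trip13, the ATPase that takes the checkpoint complex apart, stood at 44.9 ± 5.67 RPKM (SD, n = 4) against 7.99 ± 7.71 RPKM (SD, n = 3), a difference of 2.71 (limma adjusted p = 0.000638). Mad2l1bp, the adaptor with which Trip13 works, differed by 0.84 (limma adjusted p = 0.0109), and its call was lost with library total scaling (0.53, 0.0673) and after removal of the trend over length and GC content (0.38, 0.217). Espl1, which encodes separase, the protease that securin restrains, measured 6.70, 5.16, 2.63 and 4.61 RPKM in FSC-A High and 0.0021, 0.404 and 0.437 RPKM in FSC-A Low. Its difference was 2.14 (limma adjusted p = 0.000772), and it passed the filter on low values through the FSC-A High libraries alone. Ube2d1, another E2 enzyme used by the complex, did not pass (-0.43, limma adjusted p = 0.212), but was called lower with library total scaling (-0.73, 0.0407) and once the length and GC trend was removed (-0.87, 0.0335). The deubiquitinases Usp37 and Usp44, the Fzr1-binding Mad2l2 and the cohesin subunit Rad21, which separase cleaves, were not called either, with limma adjusted p from 0.291 to 0.663.

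The proteins that the APC/C degrades were followed by the transcripts of 32 cell cycle substrates, all tested and none of them a member. In FSC-A High 28 of them were higher and 1 was lower, against 15.6% and 11.7% of all genes, and 3 were not called (Skp2, Cdc6 and Dbf4). The median log2 difference was 2.58, and leaving out any 1 library gave 27 to 29 calls. The list was chosen with earlier results of these data known, so these counts describe it and are no independent test. Cenpf, among the 28, passed the filter on low values through the FSC-A High libraries alone. Cks1b, a cofactor of cyclin-dependent kinases, measured 639, 590, 627 and 592 RPKM in FSC-A High and 130, 137 and 126 RPKM in FSC-A Low, with a difference of 2.21 (limma adjusted p = 8.1e-08). Nusap1, a spindle protein, measured 59.0, 52.9, 62.4 and 66.2 RPKM against 3.19, 2.28 and 2.68 RPKM, a difference of 4.04 (limma adjusted p = 1.12e-07). Both genes showed tight groups that lay far apart. Cdca3, an F-box-like protein that promotes mitotic entry, differed by 4.59, the mitotic kinase genes Aurka and Aurkb by 4.48 and 3.93, and Gmnn, the geminin gene that blocks relicensing of replication, by 2.30 (limma adjusted p from 1.83e-07 for Cdca3 to 3.14e-06 for Gmnn).

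Cdc25a, the phosphatase that activates cyclin-dependent kinases in S phase entry and beyond, was the exception. It measured 2.61, 3.62, 3.84 and 2.87 RPKM in FSC-A High and 12.0, 6.79 and 5.55 RPKM in FSC-A Low, a difference of -1.05 (limma adjusted p = 0.0293), and every FSC-A Low library was above every FSC-A High library. The call was lost without FSC-A High 1, FSC-A High 2, FSC-A High 4 or FSC-A Low 1 (limma adjusted p from 0.0524 to 0.132) and after removal of the trend over length and GC content (-0.76, 0.127).

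**Figure D4:**
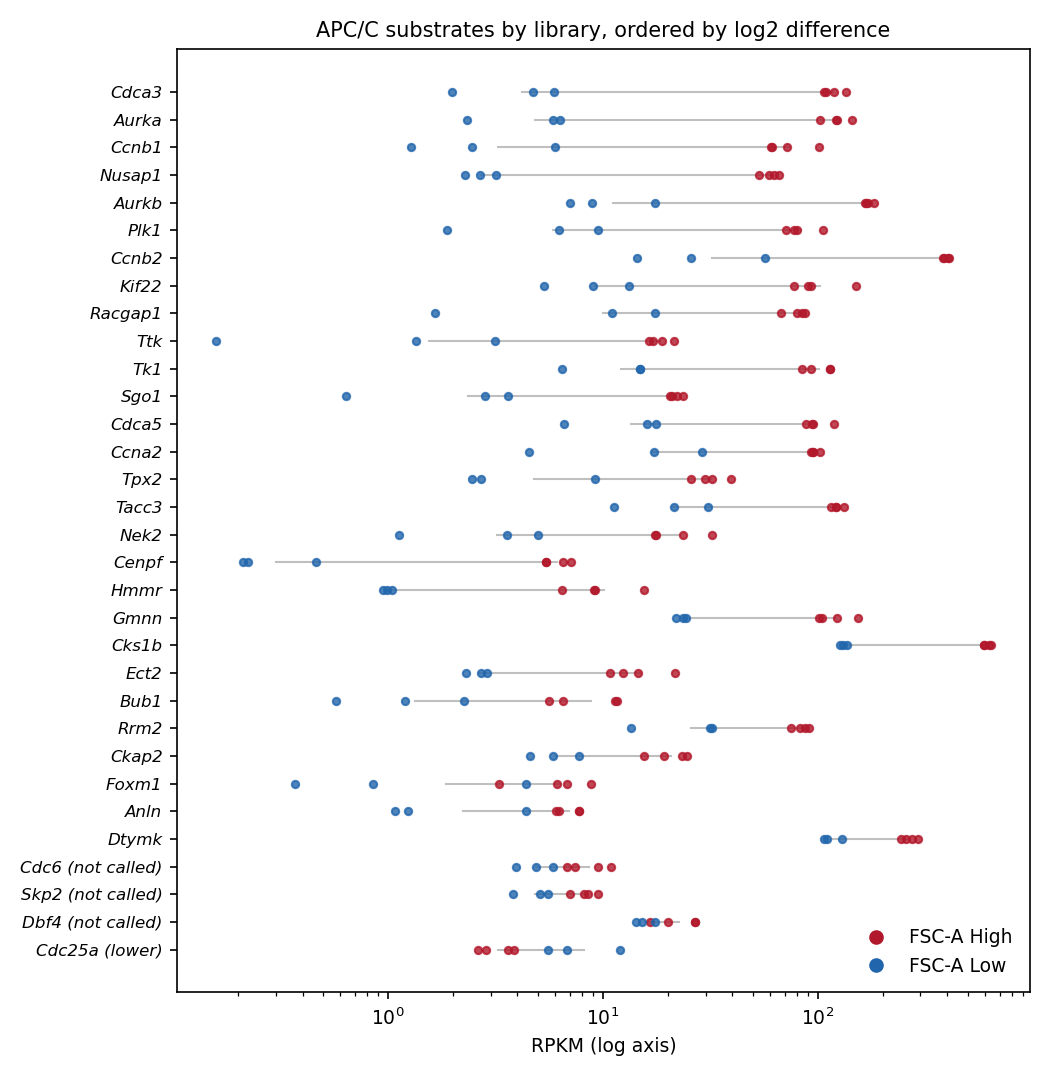
RPKM (log axis) of 32 APC/C substrates in each FSC-A High (red) and FSC-A Low (blue) library, ordered by log2 difference, with a grey line between the group means. All but Foxm1, Dbf4 and Cdc25a have every red point above every blue one, and in Cdc25a the order is inverse.

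The promoter letters of Ube2c, Cdc20 and Fbxo5 were also found in part of the substrates. Of the 27 substrates with a RefSeq window, 15 (55.6%) held both a CHR and a CCAAT match, as did 3 of 9 other regulators and 0 of 9 other core subunits, against 8.61% of all 27025 genes with a window. Among the tested genes with a window, which include the members, 26.9% of the 603 with both matches were called higher in FSC-A High. The 603 include Ube2c, Cdc20 and Fbxo5, which were chosen by this same contrast. The share was 17.9% of the 792 with CHR alone and 16.5% of the 2959 with CCAAT alone. Of the 4035 with neither it was 13.9%, and of all 8389 it was 16.1%. These shares are a description of letters and calls over genes, which are not independent replicates.

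For comparison, the SCF complex, another ubiquitin ligase of the cell cycle, was read from 7 genes, of which 6 were tested (Fbxw7 was under the filter). The cyclin F gene Ccnf, an F-box gene whose transcript follows the cycle, was higher in FSC-A High by 2.72 (limma adjusted p = 7.81e-05), the RING subunit Rbx1 by 1.41 (0.000140) and the adaptor Skp1 by 1.04 (0.00171). The scaffold Cul1 was lower (-0.62, limma adjusted p = 0.020), as was the F-box gene Fbxw11 (-0.97, 0.0353), and Btrc was not called. Thus 3 of the 6 were called higher and 2 lower, where 15.6% of all genes were called higher and 11.7% lower. Neither lower call held without FSC-A High 3, FSC-A Low 1 or FSC-A Low 3, nor for Fbxw11 without FSC-A High 2 or 4 (limma adjusted p from 0.0592 to 0.162). After removal of the length and GC trend Ccnf and Rbx1 were called (3.07 and 1.12), and Skp1 (0.52, limma adjusted p = 0.0516), Cul1 (-0.49, 0.0664) and Fbxw11 (-0.65, 0.164) were not. Of all genes, 9.81% were called higher and 7.47% lower after that removal.

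The genes whose pattern over the 7 gated libraries lay nearest to that of a member were found by the root mean square difference of centred log2(RPKM + 1) values among 5884 genes. Nearest to Ube2c were Pimreg (0.233), Birc5 (0.526), Fam83d (0.639, listed at 0 in FSC-A Low), Ccnb1 (0.734) and Aurka (0.791), and nearest to Cdc20 were Prc1 (0.127), Pbk (0.162), Ndc80 (0.173), Hmgb2 (0.198) and Shcbp1 (0.205). Nearest to Cdc27 were Haus4 (0.0877), Hspb11 (0.115), Nudt1 (0.127), Nfs1 (0.127) and Cercam (0.129). The nearest neighbours of Ube2c were further away than those of Cdc20 or Cdc27. The distance is not scaled to the size of a difference, and Ube2c had the largest difference of all tested genes (5.43).

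The unfractionated libraries held 30889443, 21307178, 27206879 and 29952311 reads and are given as CPM (reads of a gene scaled to the total of its library). Library 4 stood apart: the ribosomal RNA gene Rn45s took 15.2% of its reads, against 3.06% to 5.26% in the others, and 11384 genes had reads, against 12909 to 13368. Ube2c measured 165, 175, 327 and 29.4 CPM in libraries 1 to 4, with a mean of 174 ± 122 CPM (SD, n = 4) and of 223 ± 90.4 CPM (SD, n = 3) without library 4. Cdc20 measured 327, 181, 201 and 74.1 CPM, Fbxo5 59.4, 73.6, 56.3 and 20.5 CPM, and Pttg1 193, 134, 201 and 47.4 CPM. Ube2s measured 69.5, 52.4, 56.9 and 29.9 CPM. In these 5 cycle-regulated genes library 4 was the lowest, at 0.132 (Ube2c), 0.314 (Cdc20), 0.324 (Fbxo5), 0.269 (Pttg1) and 0.501 (Ube2s) of the mean of the other 3.

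Fzr1 went the other way, at 149, 89.0, 124 and 218 CPM, with library 4 highest at 1.81 of the mean of the other 3. The core subunits showed no common direction in library 4: Cdc27 measured 72.8, 83.1, 68.1 and 82.0 CPM, Cdc26 57.3, 109, 75.9 and 96.9 CPM and Anapc11 49.3, 94.2, 104 and 72.6 CPM, where library 4 lay within the range of the others. Only Anapc5 among the core members was lowest there, at 912, 730, 838 and 570 CPM. Over all 13578 genes with at least 10 reads in a library, the median ratio of library 4 to the mean of the others was 0.760 and 38.5% of genes were lowest in it. By comparison, 30 of the 32 substrates were lowest in library 4 (median ratio 0.305), and so were 7 of 11 other regulators (0.399) and 4 of 10 other core subunits (0.882). The part of Rn45s and of the number of genes detected in these values was not tested.

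**Figure D5:**
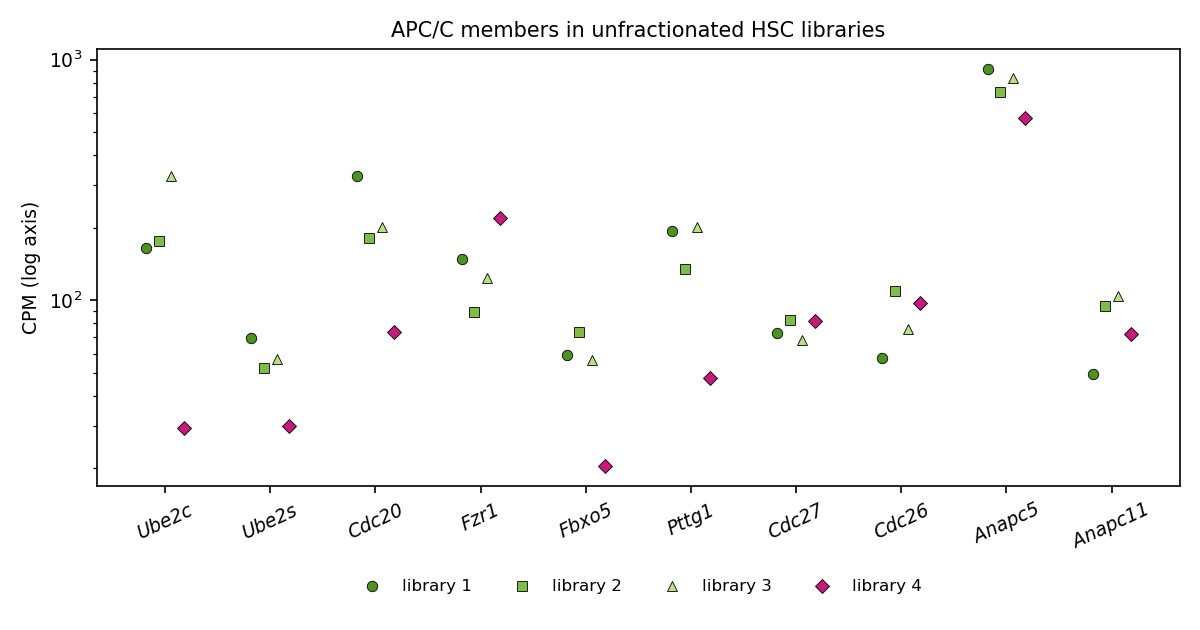
CPM (log axis) of the 10 APC/C genes in unfractionated HSC libraries 1 to 4. Library 4 (diamond) is the lowest point for Ube2c, Ube2s, Cdc20, Fbxo5, Pttg1 and Anapc5, the highest for Fzr1 and within the range of the others for Cdc27, Cdc26 and Anapc11.

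Within each unfractionated library the ratio of Cdc20 to Fzr1 per length was 3.75, 3.46, 2.76 and 0.578, so Cdc20 exceeded Fzr1 in libraries 1 to 3 and fell short of it in library 4. The ratio of Ube2c to Ube2s was 3.05, 4.29, 7.35 and 1.26. Per kilobase of transcript, mean levels ran from Anapc5 (320 CPM per kb), Pttg1 (194), Ube2c (180), Cdc20 (109), Cdc26 (104) and Anapc11 (83.2) down to Fzr1 (47.5), Ube2s (42.2), Fbxo5 (27.0) and Cdc27 (14.1). The length was that of the transcript used in the gated files, 741 nt for Pttg1 and 962 nt for Anapc11. Their other RefSeq transcripts, of 1674 and 3229 nt, would place both genes lower, so their places depend on that choice. Anapc5 at the top and Cdc27 at the bottom held the same places in both gates. Gated and unfractionated files were made in different units, so levels are not compared across them.

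The labelled cell type was checked by marker genes. All 10 HSC markers were measured at 1 RPKM or more in at least 1 gated library, and their summed level was 325 to 412 RPKM in FSC-A High and 527 to 664 RPKM in FSC-A Low, with 5 of the 10 lower in FSC-A High by limma. Of these, Kit ranged from 17.9 to 25.2 RPKM against 48.8 to 61.2 RPKM. Summed markers of several other liver and blood cells overlapped between the gates: hepatocyte 12.1 to 16.9 against 8.32 to 17.0 RPKM, erythroid 12.8 to 28.5 against 15.9 to 26.0 RPKM with 4 of 6 genes under 1 RPKM throughout, and macrophage 13.7 to 28.4 against 10.2 to 17.3 RPKM. Other sums were higher in every FSC-A High library. Megakaryocyte markers summed to 69.6 to 103 RPKM against 52.3 to 67.0 RPKM. The granulocyte and monocyte sum, most of it Prtn3, was 101.1 to 145 against 98.0 to 100.9 RPKM and so barely separated. In both lists 0 genes were called, and single genes did not share a direction. The lymphoid sum, most of it Nkg7, was 2.22 to 3.49 against 0.538 to 1.64 RPKM, with 1 gene called higher and with Cd3e and Dntt at 0 in every gated library, and the sinusoidal endothelial sum was at most 3.45 RPKM. The part of these markers in the APC/C differences was not tested.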

How the data were processed

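RNA was measured in 11 libraries of sorted HSCs, grouped by their titles. The 7 gated files, as deposited, give a value per RefSeq transcript (33984 in each), taken to be RPKM as the authors computed it. The unit is inferred, since weighting the values by length and summing them gives nearly the total that defines RPKM; it could equally be FPKM. The depth of 65.7 M to 98.2 M reads is an estimate from the steps between low values. In the unfractionated files the authors deposited a signal for each gene symbol, which 1 size factor per library turned into whole reads (100% within 0.01), expressed here as CPM. STAR, DESeq2 and mm10 are named per the submitters' processing notes, without versions or roles.

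Each gene was represented by the transcript of highest mean RPKM in the gated files. The gates were compared with limma 3.58.1 (R 4.3.3; lmFit, eBayes with trend) on log2(RPKM + 1), for the 10619 genes that reached 1 RPKM in 3 or more libraries, with Benjamini-Hochberg adjustment over all of them. The step was tested on simulated data. Library total, upper quartile and median-ratio scaling, pseudocounts of 0.5 and 5, no filter or one at 5 RPKM, omission of single libraries, a replicate block, the sum over transcripts and the removal of a spline (5 degrees of freedom) over length and GC content (10460 genes) or expression were the alternatives. The recovered reads form 1 group, so no count test was run on them. Lengths came from GENCODE transcripts and promoters from RefSeq. The 10 members all matched. Coordinates are those of GRCm38.

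The members and lists were chosen with earlier results of these data known, so no test of a member is given in the gated comparison. The calls of list genes describe the lists and are no independent test of them. The counts over all genes include the members. Named beside them were every core subunit, up to 6 called genes of each other list by smallest p, and the 5 genes most like Ube2c, Cdc20 and Cdc27 with a mean log2 value of at least 3. Ube2d1, Cdc25a, Cenpf, Mad2l2, Usp37, Usp44, Rad21, Skp2, Cdc6, Dbf4, Btrc, Fbxw7, Fbxo43, Kit, Prtn3, Nkg7 and Rn45s were named after their values were seen. Python 3.11.15, numpy 2.4.6, pandas 2.3.3 and matplotlib 3.10.9 prepared the tables and plots.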

Additional observations from a re-analysis of the deposited data

Results flagged for a closer look

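Pttg1 in FSC-A High 3 measured 58.8 RPKM, while the other FSC-A High libraries measured 39.7, 41.0 and 42.2 RPKM. The gap to the nearest library was 0.868 of the range of the group, above Dixon's 95% critical value for 4 samples. Chance gives such a gap in about 1 in 20 groups, and 20 groups were examined. The second transcript of Pttg1 also had its highest value there, 26.6 RPKM, but it can rest largely on the same reads and is no separate measurement.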

How the results depend on the processing

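Of the 179 values of member differences under the alternatives, 160 moved by less than the spread between libraries, 18 moved by more and 1 changed sign: Anapc5 was at -0.089 with the trend over expression level removed. Part of the 160 could not move. A change of filter leaves a member's difference as it was, as does the sum over transcripts for members with a single listed transcript. The replicate block repeated the member differences found without FSC-A High 4. Anapc13 changed sign to -0.12 after removal of the length and GC trend. Under that removal 1807 genes were called in place of 2902 (1026 higher and 781 lower), 1 core subunit outside the members in place of 3, and 2 SCF genes in place of 5. With no filter, limma called 0 core subunits outside the members (5 higher and 1 lower at an unadjusted p below 0.05). Leaving out 1 library gave 1 to 4 such core subunits (1 without FSC-A Low 1), 3 to 5 SCF genes (3 without FSC-A High 3, FSC-A Low 1 or FSC-A Low 3) and 2190 to 2780 called genes. Library total scaling gave 980 higher and 2285 lower genes (30.02% higher) in place of 1657 and 1245 (57.1% higher), and for the core 0 higher and 3 lower. A replicate block by library number gave 2431 called genes, 3 core subunits, 6 regulators, 27 substrates and 5 SCF genes; the deviations of same-numbered libraries correlated at -0.03, 0.06 and 0.00, so the numbers are not taken to pair them. Counts of regulators and substrates stayed within 1.5 times under every alternative run. The causes of these changes were not tested. Depth was an estimate for the gated libraries, so no detection limit is given for low genes such as Cdc27.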
